A study of Mus musculus with 21 samples.

Results

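Expression of 33 genes of the lysosome was followed through 7 groups of mouse eosinophil and progenitor libraries. They were taken by symbol from a list made for this work and comprise 16 genes of the proton pump and its accessory proteins, 8 cathepsins, and 9 genes of the lysosomal membrane, its enzymes, lipid carriers and regulators. All 33 were found among the 15945 genes of the table of bone marrow cells and among the 16645 genes of the table of cultured eosinophils. The table with cytokine treatment lists 32 of them among 22274 genes, Atp6v0e not being listed there under that symbol. It lists Atp6v0e1, which was not counted as a member and stood at 103 ± 3.19 CPM in resting and 110.2 ± 5.66 CPM in treated cells.

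Poly(A) RNA was sequenced from 21 libraries, and all were labelled wild type (WT) with no strain or age. The first table held eosinophils (BM eosinophils, n = 3) and granulocyte-macrophage progenitors (GMPs, n = 3), both from bone marrow and untreated. The second held untreated eosinophils (resting, n = 3) and eosinophils treated with IL-4 and GM-CSF (T2, n = 3), whose labels add IL33 for replicate 1, IL34 for replicate 2 and IL35 for replicate 3. Whether the agents truly differed could not be settled, and the 3 are treated as 1 group. The last table was of eosinophils differentiated in culture from bone marrow (BMDEs). Marrow cells received SCF and FLT3 ligand, each at 100 ng/mL, for 4 days, followed by 10 ng/mL of IL-5. They were left untreated (control, n = 2) or given, on day 4, 5 µM of the iron chelator deferoxamine (DFO, n = 3) or 10 µM of the iron source ferric ammonium citrate (FAC, n = 4), and RNA was taken on day 7. The labels attach that culture text to every sample, so how the cells of the other groups were isolated is not given, and nothing in them says that replicates were separate animals or cultures. Where replicates share a culture, the p-values measure only the spread between these libraries.

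The vacuolar proton pump acidifies lysosomes and endosomes. Its V1 sector (subunits A to H) hydrolyses ATP in the cytosol, and its V0 sector (subunits a, c, c″, d and e) carries protons across the membrane. Cathepsins are the proteases that work in the acid lumen, the LAMP proteins and the tetraspanin CD63 line the limiting membrane, MCOLN1 releases calcium and iron from the lumen, and NPC2 hands cholesterol to NPC1 for export. The transcription factors TFEB and TFE3 bind a short palindrome in the promoters of many lysosomal genes. Iron taken up with transferrin is freed from its carrier in acid endosomes, which is where the pump touches iron handling, and CD63 is a known membrane protein of the eosinophil's granules.

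Promoters are shown because TFEB and TFE3 were themselves members and their recognition letters could be looked for beside the measured changes. RefSeq windows on GRCm38.p6, from 250 bases before to 50 bases after a start of a gene, were matched for 25 of the 33 members. These 25 had 31 windows, so the start used for a window need not be the outer end of its gene. The letters TCACGTG, read on either strand, occurred in the windows of 8 of these 25 (32%) against 4.29% of the 27025 genes with a window, and in 23 of 102 other lysosome genes with a window (22.5%). The shorter letters CACGTG, which lie inside the longer ones, occurred in 9 members (36%) against 8.09% of all genes, the ninth being Ctsl. TTC and GAA with 4 bases between them, a spacing that STAT6 can bind, were found in 1 member window (4%), that of Tfeb, against 8.01% of all genes. A match describes letters in a window and is not a shown binding site.

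The 4 whole windows printed here belong to the members that held TCACGTG and passed the test between T2 and resting eosinophils, in order of the size of that change, with the matched letters in capitals and each sequence 5′ to 3′ along its gene. Lamp1 held 4 sites, which began 62, 45, 28 and 16 bases before its start. Mcoln1 held 2, at 72 and 46 bases before its start. Atp6v1a held 1 at 132 bases before the start used. Ctsa held 1 at 13 bases before the start used and 1 at the fifth base transcribed from it. The starts used for Ctsa and Atp6v1a lie inside these genes, which span chr2:164832872-164841032 and chr16:44085402-44139702. Lamp1 and Atp6v1a were among the members that rose with T2 cytokines and Ctsa and Mcoln1 among those that fell, so that both directions occurred beside these letters.
Ctsa, chr2:164833523-164833822, plus strand: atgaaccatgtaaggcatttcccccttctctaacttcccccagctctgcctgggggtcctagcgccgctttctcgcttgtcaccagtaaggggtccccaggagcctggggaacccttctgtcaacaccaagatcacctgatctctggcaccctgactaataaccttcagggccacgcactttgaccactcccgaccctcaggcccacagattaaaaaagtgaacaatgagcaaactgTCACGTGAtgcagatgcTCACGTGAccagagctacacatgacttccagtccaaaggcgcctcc
Atp6v1a, chr16:44139210-44139509, minus strand: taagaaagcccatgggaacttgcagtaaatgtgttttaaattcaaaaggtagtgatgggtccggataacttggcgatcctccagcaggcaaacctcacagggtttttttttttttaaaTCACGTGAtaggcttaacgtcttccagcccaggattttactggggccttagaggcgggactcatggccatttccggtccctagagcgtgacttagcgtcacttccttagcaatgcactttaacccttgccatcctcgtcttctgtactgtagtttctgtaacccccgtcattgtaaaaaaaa
Lamp1, chr8:13158911-13159210, plus strand: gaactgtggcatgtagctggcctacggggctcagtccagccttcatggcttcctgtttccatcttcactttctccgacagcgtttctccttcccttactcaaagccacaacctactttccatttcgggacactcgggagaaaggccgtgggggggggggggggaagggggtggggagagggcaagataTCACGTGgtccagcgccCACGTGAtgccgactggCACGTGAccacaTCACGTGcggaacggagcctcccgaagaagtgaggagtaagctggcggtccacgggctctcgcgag
Mcoln1, chr8:3500269-3500568, plus strand: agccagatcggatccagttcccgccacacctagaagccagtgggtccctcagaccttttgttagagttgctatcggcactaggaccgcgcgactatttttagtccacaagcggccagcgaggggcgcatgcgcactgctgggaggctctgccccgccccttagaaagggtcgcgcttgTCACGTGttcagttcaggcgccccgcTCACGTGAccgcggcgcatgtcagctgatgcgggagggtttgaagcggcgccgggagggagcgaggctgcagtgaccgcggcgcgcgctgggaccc

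The other 4 members with these letters were Atp6v0b, Atp6v0d1, Ctsd and Atp6v0e. Only the site nearest the start is shown for them, with 10 bases on either side, to let the letters around the palindrome be compared. In 3 of these 4, as in Ctsa, Atp6v1a and 1 site of Mcoln1, the match was followed by an A that makes it read the same on both strands.
Atp6v0b: ggtcggcgcaTCACGTGcgccggtcag
Atp6v0d1: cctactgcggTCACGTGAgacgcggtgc
Ctsd: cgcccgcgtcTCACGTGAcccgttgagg
Atp6v0e: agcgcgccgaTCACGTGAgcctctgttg

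Levels are CPM, counts scaled to the size of the library with TMM factors, and values after ± are SDs over the libraries of a group. Values by library follow the order of the replicate numbers, which are 9, 11 and 12 for DFO and 5, 6, 7 and 8 for FAC. Libraries held 16073573 to 28992668 counts, and a gene was called at a Benjamini-Hochberg adjusted p under 0.05 over all genes tested in a comparison. Before the results, 2 features of the libraries need stating. The 12 neutrophil markers examined, secretory granule genes among them, summed to 33284, 72266 and 198213 CPM in BM eosinophil libraries 1, 2 and 3 against 77.6 to 109.8 CPM in GMPs, and the 6 progenitor markers, Mpo and Elane among them, summed to 31488 to 60109 CPM against 49289 to 58299 CPM. The 11 eosinophil markers summed to 20219.6 to 36989 CPM there, 97.2 to 259 CPM in GMPs, 6338 to 7984 CPM in the table of resting and T2 cells and 18713 to 70173 CPM in BMDEs. Among FAC libraries, library 6 was the highest of the 4 for 27 of the 33 members, and results with FAC are also given without it. The matching share over all genes was not counted, so this count is not read as a trait of the members. In bulk RNA, fewer cells of a type and less RNA per cell cannot be told apart.

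Summed over all 33 members, the level was 5660 to 6567 CPM in GMPs and 10410.6 to 12688 CPM in BM eosinophils. It was 7328 to 7623 CPM in resting and 8805 to 9107 CPM in T2 eosinophils, over 32 members. In BMDEs it was 12674 to 13198 CPM in controls, 13345 to 13591 CPM with DFO and 12991 to 18937 CPM with FAC. The groups did not overlap in the first or the second table. Scaled by total counts without TMM factors, the first table stayed separate and the second did not, at 7901 to 8185 CPM in resting and 8087 to 8571 CPM in T2 eosinophils. These sums are given side by side, since each table was scaled on its own, and no test was made across tables.

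**Figure D1:**
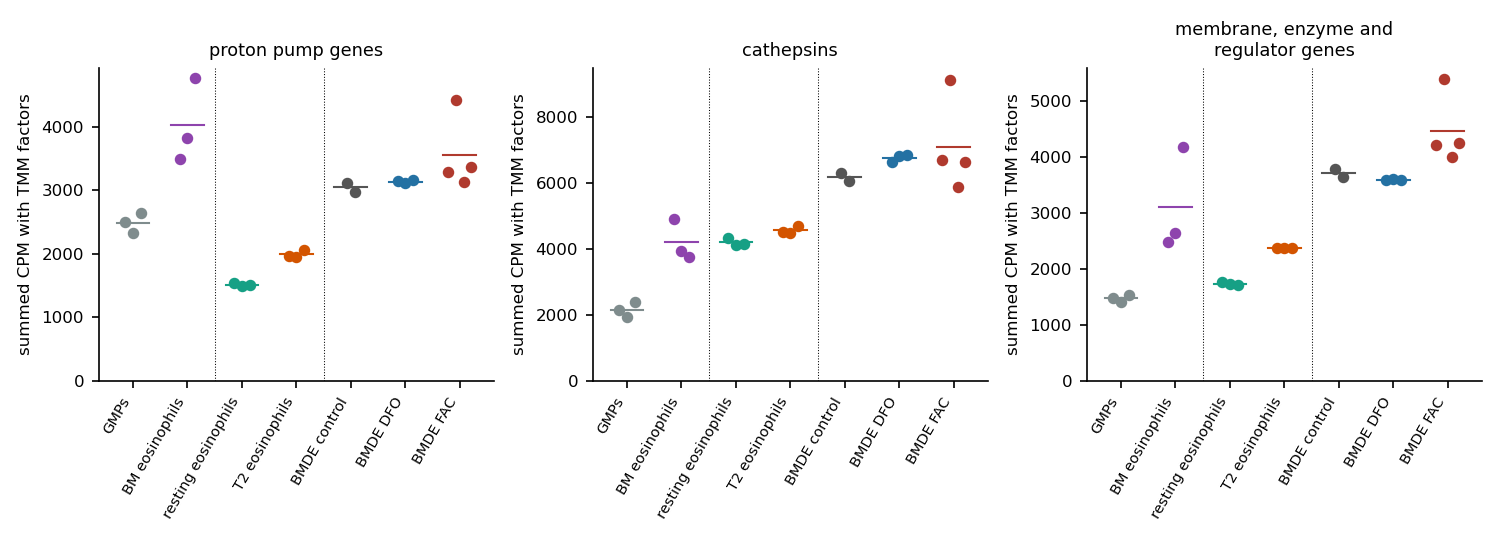
Summed CPM (vertical axes, linear from 0) of the pump genes, the cathepsins and the other members in each of the 21 libraries, grouped along the horizontal axis, with a line at each group's mean and dotted lines between separately scaled tables. Pump sums were 2317 to 2633 CPM in GMPs and 3486 to 4760 CPM in BM eosinophils, and 1 FAC library (library 6, 4413 CPM) lies above the other BMDE libraries.

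Per kilobase of transcript, which allows levels of different genes to be set side by side, 2 members led most groups. Ctsd, the aspartic protease cathepsin D, was the highest member in resting eosinophils at 1478 ± 44.1 CPM per kb and in T2 eosinophils at 1552 ± 29.1 CPM per kb, and with DFO at 1142 ± 21.8 CPM per kb. Cd63 was the highest in BM eosinophils at 1558 ± 859 CPM per kb, in control BMDEs at 1157 ± 5.4 CPM per kb and with FAC at 1708 ± 318 CPM per kb. In GMPs the first place was held by Atp6v0c, the proton-carrying c subunit, at 437 ± 63.9 CPM per kb, ahead of the carboxypeptidase Ctsz at 359 ± 50.1 CPM per kb, neighbours whose spreads overlapped. Atp6v0c was also the highest pump gene in T2 eosinophils and all 3 BMDE arms. In BM eosinophils it had the highest mean, at 672 ± 30.7 CPM per kb, but Atp6v0e, at 569 ± 384, was above it in library 3. The highest pump gene in resting eosinophils was Atp6ap1 at 199.9 ± 6.69 CPM per kb. The regulators were low everywhere: Tfeb ranged from 2.62 ± 0.736 CPM per kb in GMPs to 22.2 ± 1.78 in resting eosinophils, and Tfe3 from 6.63 ± 0.232 in resting eosinophils to 23.8 ± 0.852 with DFO.

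Bone marrow eosinophils were compared with GMPs in search of gene programs tied to the iron pool as progenitors mature. Iron itself was not measured in these libraries. Most cathepsins and several pump subunits were higher in the eosinophil libraries, and the largest change was that of Cd63. Of 32 members tested, 15 were called higher and 1 lower, where 13.0% of all genes tested were called higher and 6.78% lower. The members' median log2 fold change was 0.58 against 0.01 over all genes. The ranges of the groups were separate for 21 members, and for 48.3% of all genes.

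Among cathepsins, 5 of 8 rose. Ctsd (chromosome 7 from 142375910 to 142387827 on GRCm38) had 383, 369.9 and 437 CPM in the GMP libraries and 1672, 1542 and 1222 CPM in the eosinophil libraries, a log2 fold change of 1.90 (standard error 0.19, adjusted p 0.00125). Each eosinophil library was well above every GMP library. Ctsb, a cysteine protease, had 526, 481 and 588 CPM against 1882, 1256 and 1128 CPM, a change of 1.42 (standard error 0.24, adjusted p 0.00891). The cysteine proteases Ctsh, Ctss and Ctsl rose by 1.37, 1.29 and 1.12 on the log2 scale. Ctsz was the 1 member that fell, from 544, 436 and 573 CPM in GMPs to 348, 339 and 269 CPM, a change of -0.70 (standard error 0.19, adjusted p 0.0412). Ctsc, which activates granule serine proteases, went from 262 ± 27.8 to 161 ± 48.7 CPM without passing the test (adjusted p 0.0864), and Ctsa from 252 ± 21.4 to 325 ± 58.2 CPM (adjusted p 0.19).

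Of 15 pump genes tested, 8 rose and none fell. Atp6v0e, a small V0 subunit, had 114, 111 and 140.2 CPM in GMPs and 227, 352 and 826 CPM in eosinophils, a log2 fold change of 1.94 (standard error 0.47, adjusted p 0.0298). The highest value was that of eosinophil library 3. That library had the highest sums of neutrophil, eosinophil, monocyte and macrophage, erythroid, and mast cell and basophil markers. Its sums of progenitor, B cell and dendritic cell markers were below those of library 1. Its TMM factor was 0.689, against 1.008 and 0.914 in libraries 1 and 2. The part of these features was not tested. Library 3 was also the highest for the V1 subunit gene Atp6v1f. That gene had 75.4, 64.2 and 86.2 CPM against 140.5, 170.2 and 368 CPM, a change of 1.59 (adjusted p 0.0293). The other pump genes called were Atp6v1d (1.33), Atp6v1e1 (1.26), Atp6v0b (1.20), Atp6v0d1 (0.73), Atp6ap2 (0.66) and Atp6v0c (0.62). Neither ATP-binding subunit was called: Atp6v1a had a log2 fold change of -0.05 (SE 0.27) and Atp6v1b2 of -0.20 (SE 0.14). The stalk genes Atp6v1g1 at 1.25 (SE 0.44) and Atp6v1c1 at 0.01 (SE 0.13), with Atp6v1h at 0.26 (SE 0.23), Atp6v0a1 at 0.24 (SE 0.26) and Atp6ap1 at 0.25 (SE 0.14), were not called either. Atp6v0d2 did not pass the filter on low counts, with 1 read over all GMP libraries and 1.67, 0.269 and 0 CPM in the eosinophil libraries. Without that filter it was not called (adjusted p 0.122).

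Of the 9 other members 2 rose. Cd63 (chromosome 10 from 128896231 to 128912822) had 87.9, 76.1 and 125 CPM in GMPs and 1003, 1243 and 2676 CPM in eosinophils, a log2 fold change of 4.09 (standard error 0.45, adjusted p 0.00185). All 3 eosinophil libraries lay far above the GMPs and library 3 was again the highest. Tfeb had 5.89, 4.49 and 7.89 CPM against 18.5, 15.7 and 18 CPM, a change of 1.51 (standard error 0.33, adjusted p 0.0227). Its relative Tfe3 had 54.4, 37.7 and 44.9 CPM against 56.9, 50.4 and 26.4 CPM and was not called (-0.03, adjusted p 0.949), with overlapping libraries. Lamp1, the main glycoprotein of the lysosomal membrane, had 175, 212 and 143 CPM against 236, 103 and 70.6 CPM (-0.37, adjusted p 0.579), also overlapping. Lamp2, Hexa, Mcoln1, Npc1 and Npc2 ranged from -0.47 to 0.54 on the log2 scale without a call.

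In these libraries 12 of 12 neutrophil markers, 12 of 16 monocyte and macrophage markers (3653 to 5327 CPM against 2025 to 2747 CPM) and 10 of 10 erythroid markers (1475 to 3210.2 CPM against 27.8 to 29.6 CPM) were called higher as well, with 3 of the 16 lower. So were 7 of 7 mast cell and basophil markers (2085 to 3197 CPM against 349 to 624 CPM) and 8 of 8 B cell markers (315 to 643 CPM against 41.9 to 58.1 CPM). Of 9 dendritic cell markers tested 5 were called higher and 2 lower, and of 6 progenitor markers 1 higher and 2 lower. The part of all these lists in the result was not tested. The count of members called higher fell from 15 to 2, 2 and 4 without GMP library 1, 2 and 3 and to 7 without eosinophil library 2. In the same fits the genes called over the whole comparison fell from 2413 to 747, 880 and 974 and to 1452. Without eosinophil library 3, 16 members were called higher, and 4623 genes were called in all. Only Ctsd and Cd63 were called under every alternative run. Atp6v0c was called in 3 of 12 fits and Atp6v0d1 in 4, and with length and GC content corrected the log2 fold change of Atp6v0c was 0.09. Over the 12 fits that of Atp6v1f ranged from 0.43 to 1.79 and that of Atp6v0e from 0.88 to 2.22.

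T2 eosinophils were set against resting ones to simulate what an allergic response does. Among the members, most pump genes rose and none fell. The member cathepsins split, with Ctsc, Ctsz and Ctsb higher and Ctsa, Ctss and Ctsl lower. Of 32 members, 18 were called higher and 6 lower. Calls were common in this comparison, at 38.2% of all genes higher and 37.9% lower, and the groups did not overlap for 77.7% of all genes and for 24 members. The members' median log2 fold change was 0.40 against -0.01 over all genes.

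Among pump genes 10 of 15 rose. Atp6v0d2 (chromosome 4 from 19876838 to 19922566), an alternative d subunit known from osteoclasts and macrophages, had 0.0562, 0.255 and 0.116 CPM in resting and 4.05, 2.68 and 3.36 CPM in T2 libraries, a log2 fold change of 4.46 (standard error 0.42, adjusted p 8.06e-08) that rests on 8 reads over the resting libraries. Atp6v0d2 passed the filter on low counts only through the T2 libraries, so it could be found higher but not lower. Even its T2 level was low beside that of Atp6v0d1, the usual d subunit, at 133, 129 and 134 CPM. Atp6v0c had 99.2, 101 and 91.8 CPM against 277, 279.9 and 302 CPM, a change of 1.55 (standard error 0.05, adjusted p 1.99e-13). Atp6v1a, which carries the catalytic site, had 83.9, 83.8 and 85.8 CPM against 163, 156 and 149 CPM, a change of 0.88 (standard error 0.05, adjusted p 1.42e-10). Atp6v1c1 had 40.5, 36.7 and 36.9 CPM against 68.2, 67.4 and 68.9 CPM (0.84, adjusted p 1.64e-09). In each of these every T2 library was above every resting library. Smaller rises were those of Atp6v1e1 (0.78), Atp6v1h (0.77), Atp6ap2 (0.56), Atp6v1f (0.41), Atp6v0a1 (0.40) and Atp6v1g1 (0.31). The remaining 5 lay close to no change: Atp6v1b2 at -0.02 (SE 0.05), Atp6v1d at 0.00 (SE 0.05), Atp6v0b at 0.11 (SE 0.06), Atp6v0d1 at 0.09 (SE 0.05) and Atp6ap1 at 0.02 (SE 0.04). The c subunit rose more than 2-fold while its partner in the ring, c″ (Atp6v0b), was not called.

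The cathepsins held the largest changes after that of Atp6v0d2. Ctsa (chromosome 2 from 164832872 to 164841032), a carboxypeptidase that also shields other lysosomal enzymes, had 313, 288 and 294 CPM in resting and 48.2, 49.4 and 53.9 CPM in T2 libraries, a log2 fold change of -2.56 (standard error 0.06, adjusted p 1.03e-15). Its exons overlap Pltp and Neurl2 on the other strand, whose reads may not have been told apart from its own. Ctsc had 26.2, 26 and 26.3 CPM against 162, 156 and 140.4 CPM, a change of 2.54 (standard error 0.06, adjusted p 5.18e-15). Ctsz had 80.5, 79 and 76.7 CPM against 331, 317 and 353 CPM, a change of 2.08 (standard error 0.05, adjusted p 3.91e-15). For all 3 the libraries of each group lay within a narrow band far from the other group. Ctsb rose by 1.06 (adjusted p 1.56e-10). Ctss, a cysteine protease of antigen processing, had 27.2, 27.4 and 28.9 CPM against 17.1, 15.4 and 18.2 CPM (-0.71, adjusted p 5.38e-07). The fall of Ctsl (-0.37, adjusted p 0.0191) came with overlapping libraries at 7.18 to 11.7 CPM. Ctsd, the most abundant cathepsin, was at 3251, 3088 and 3090.1 CPM and 3263, 3267 and 3372 CPM and was not called (0.07, adjusted p 0.0939) although its libraries did not overlap, nor was Ctsh (-0.06, adjusted p 0.198).

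**Figure D2:**
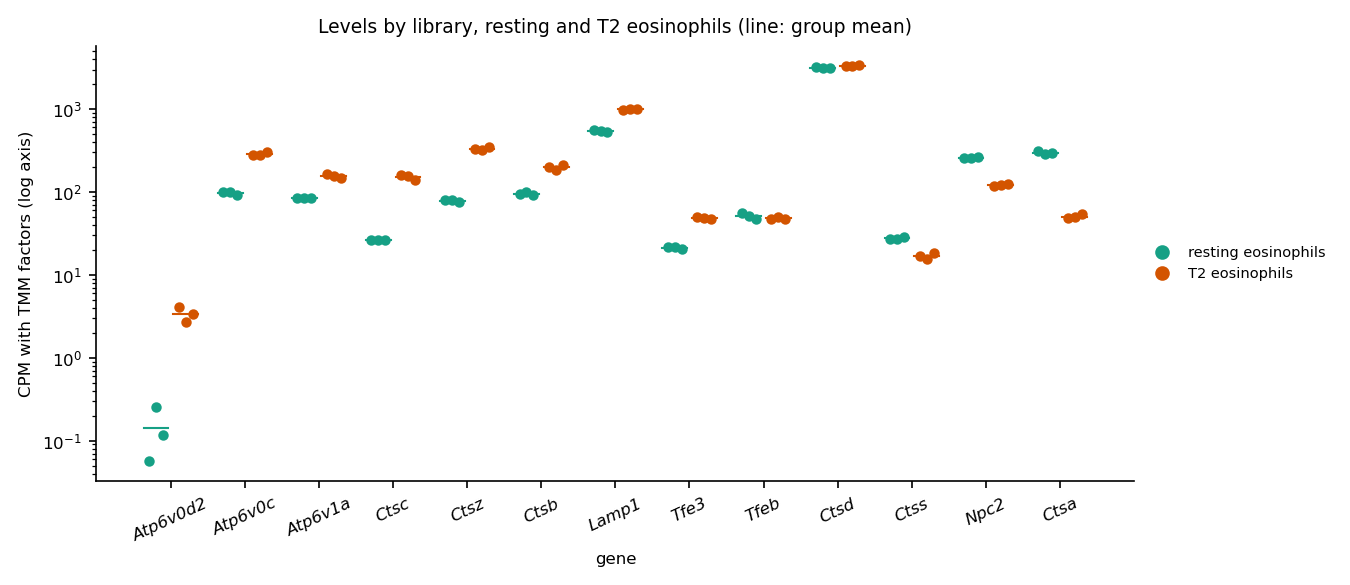
CPM (vertical log axis) of 13 members in each resting and T2 library, with a line at each group mean. Ctsa fell from 288 to 313 CPM to 48.2 to 53.9 CPM and Ctsc rose from 26.0 to 26.3 CPM to 140.4 to 161.7 CPM, while the Ctsd points of both groups lie near each other.

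Of the regulators 1 was called. Tfe3 had 21.6, 21.7 and 20.4 CPM in resting and 49.3, 48.5 and 47.3 CPM in T2 libraries, a log2 fold change of 1.19 (standard error 0.06, adjusted p 4.87e-11), whereas Tfeb had 55.7, 51.9 and 47.4 CPM against 47.7, 49.3 and 46.8 CPM and was not called (-0.11, adjusted p 0.141). Their changes were not tested against each other. Among membrane genes Lamp1 (chromosome 8 from 13159161 to 13175338) had 553, 545 and 529.7 CPM against 983, 989 and 997 CPM, a change of 0.87 (standard error 0.04, adjusted p 5.32e-12). Lamp2 rose by 0.70 and Cd63 by 0.63. The calcium and iron channel gene Mcoln1 fell by 0.60 on the log2 scale (adjusted p 1.05e-05). The cholesterol carriers diverged, with Npc1 at 0.45 and Npc2 from 259, 257 and 264 CPM to 119.6, 119.7 and 125 CPM, a change of -1.10 (standard error 0.04, adjusted p 1.66e-12). Hexa, a hexosaminidase subunit gene, changed by -0.28 (adjusted p 5.07e-05). Of these 24 calls all but that of Ctsl held under every alternative run. Monocyte and macrophage markers summed to 2027 to 2099 CPM in T2 against 1410.0 to 1511 CPM in resting libraries (5 of 12 tested higher and 3 lower, Cd5l at 0 in T2). Eosinophil markers summed to 6338 to 6462 CPM against 7623 to 7984 CPM (3 of 11 higher and 7 lower), neutrophil markers to 1275 to 1332 CPM against 2484 to 2708 CPM (2 of 12 higher and 7 lower), and mast cell and basophil markers to 482 to 530.0 CPM against 99.1 to 109 CPM (3 of 8 higher and 4 lower). In the mast cell and basophil list, Hdc alone had a mean of 464 CPM in T2 against 73.0 CPM in resting libraries. The median log2 fold change of that list was -0.94. Of 6 erythroid markers tested 1 was called higher and 5 lower, and of 7 dendritic cell markers 3 higher and 1 lower. Of 4 progenitor markers 1 was higher and 2 lower, and of 7 B cell markers 1 higher and 1 lower. The part of all these markers was not tested.

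With DFO, BMDEs were compared with untreated BMDEs to see what iron shortage changes. Ctsh was the 1 member called, and it fell. The largest difference, in Ctsl, was not called. Of 33 members none was called higher and 1 lower, where 6.46% of all genes were called higher and 5.12% lower. At an unadjusted p under 0.05 there were 7 of 33 members, against 26.0% of all genes, and DESeq2 called 2 members higher. The groups did not overlap for 24 members, against 65.7% of all genes. The median log2 fold change was 0.07 over the members and 0.00 over all genes.

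Ctsh, a cysteine aminopeptidase (chromosome 9 from 90054267 to 90076095), had 732 and 729 CPM in controls and 548, 490.4 and 483 CPM with DFO, a log2 fold change of -0.53 (standard error 0.13, adjusted p 0.031). Every DFO library was below both controls. Ctsl had 113 and 109 CPM in controls and 185, 189 and 194 CPM with DFO and did not pass the test (0.77, adjusted p 0.0624). Ctsd had 2295 and 2173 CPM against 2466, 2377 and 2444 CPM (0.12, adjusted p 0.728). Pump genes lay between -0.28 for Atp6v0d2, at 18.4 and 18.6 CPM in controls and 15.2, 16.4 and 14 CPM with DFO, and 0.23 for Atp6v0a1. The sterol exporter Npc1 had a change of 0.40 (SE 0.16) and Cd63 of -0.39 (SE 0.15), neither called. Tfe3 had 66.5 and 60 CPM against 77, 78.2 and 73 CPM (0.27, adjusted p 0.114). Tfeb had 34 and 30.4 CPM against 32.7, 34.7 and 31.1 CPM (0.03, adjusted p 0.937) and Lamp1 868 and 824 CPM against 879.6, 878 and 896 CPM (0.06, adjusted p 0.764).

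The number of calls here depended on which arms were fitted together. When controls and DFO alone were fitted, leaving out the FAC libraries, 15 members were called higher and 6 lower, where 23.7% and 24.3% of all genes were. The log2 fold changes were nearly the same, Ctsl at 0.77 (adjusted p 5.46e-11), Npc1 at 0.40 (adjusted p 1e-07), Tfe3 at 0.26 (adjusted p 0.00038), Ctsh at -0.53 (adjusted p 1.88e-08) and Cd63 at -0.39 (adjusted p 4.93e-08). In the fit of all arms the call of Ctsh ended without any 1 of the 5 libraries compared. In DFO libraries 10 of 11 eosinophil markers were called lower (18713 to 22101 CPM against 42642 to 43594 CPM), 8 of 12 neutrophil markers higher (16847 to 18917 CPM against 9208 to 11017 CPM) and 7 of 10 dendritic cell markers higher (3412 to 3569 CPM against 2037 to 2134 CPM). Of the neutrophil markers 1 was called lower. Called higher were also 4 of 6 progenitor, 1 of 8 mast cell and basophil and 1 of 7 erythroid markers, and 4 of 7 B cell markers were called lower. Of 14 monocyte and macrophage markers 2 were called higher and 3 lower. The part of these lists in the members' values with DFO was not tested.

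With FAC against the same controls, few members were called in the iron-loaded cells, and Atp6v0d2 led them. Of 33 members 1 was called higher and 1 lower, where 1.76% of all genes were called higher and 4.28% lower. Libraries did not overlap for 11 members, against 36.1% of all genes, and the median log2 fold change was 0.16 over the members and -0.02 over all genes.

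Atp6v0d2 had 18.4 and 18.6 CPM in controls and 37.3, 51.3, 37.6 and 39.6 CPM with FAC, a log2 fold change of 1.16 (standard error 0.14, adjusted p 0.00283). Libraries 5, 7 and 8 were about 2-fold above both controls and library 6 was higher still, and the call ended without control library 1 (adjusted p 0.0596). Ctsc had 246 and 229 CPM against 193, 179, 197 and 202 CPM, a change of -0.30 (standard error 0.07, adjusted p 0.0426), and was called in 4 of 11 fits. Cd63 had 1223 and 1215 CPM against 1671, 2289.5, 1535 and 1699 CPM and missed the threshold (0.56, adjusted p 0.0536), although the libraries did not overlap. Levels of Ctsd were 2460.1, 3633, 2220.3 and 2494 CPM, of Lamp1 858, 1080.4, 840.4 and 887 CPM, of Tfeb 35.4, 46.1, 29.2 and 35.8 CPM and of Tfe3 59.6, 66.7, 54.8 and 58.2 CPM with FAC, with adjusted p-values of 0.355, 0.5, 0.475 and 0.595 against controls. No other pump gene was called, and the largest difference among them was that of Atp6v0e at 0.43 (SE 0.20).

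The number of calls depended on library 6. Without it 6 members were called higher and 2 lower, where 9.98% and 11.7% of all genes were. Those called higher were Atp6v0d2 at 1.06 (adjusted p 5.57e-07), Cd63 at 0.43 (adjusted p 6.98e-05), Ctsh at 0.29 (adjusted p 0.00476), Atp6v0e at 0.23 (adjusted p 0.0253), Atp6v0b at 0.19 (adjusted p 0.0374) and Atp6v0d1 at 0.19 (adjusted p 0.0335). Those called lower were Ctsl at -0.29 (adjusted p 0.0406) and Ctsc at -0.26 (adjusted p 0.00214). With FAC 6 of 11 eosinophil markers were called higher (57989 to 70173 CPM) and 6 of 10 dendritic cell markers lower (1241 to 2447 CPM), and library 6 had the highest sum of both lists in its group. Monocyte and macrophage markers summed to 2564 to 3860.4 CPM with FAC, highest in library 6, against 2162 to 2291 CPM in controls (3 of 14 tested higher and 2 lower). Called lower were 4 of 12 neutrophil, 4 of 7 B cell and 3 of 6 progenitor markers, and 2 of 8 mast cell and basophil markers were called higher. The part of these lists in the members' values was not tested.

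**Figure D3:**
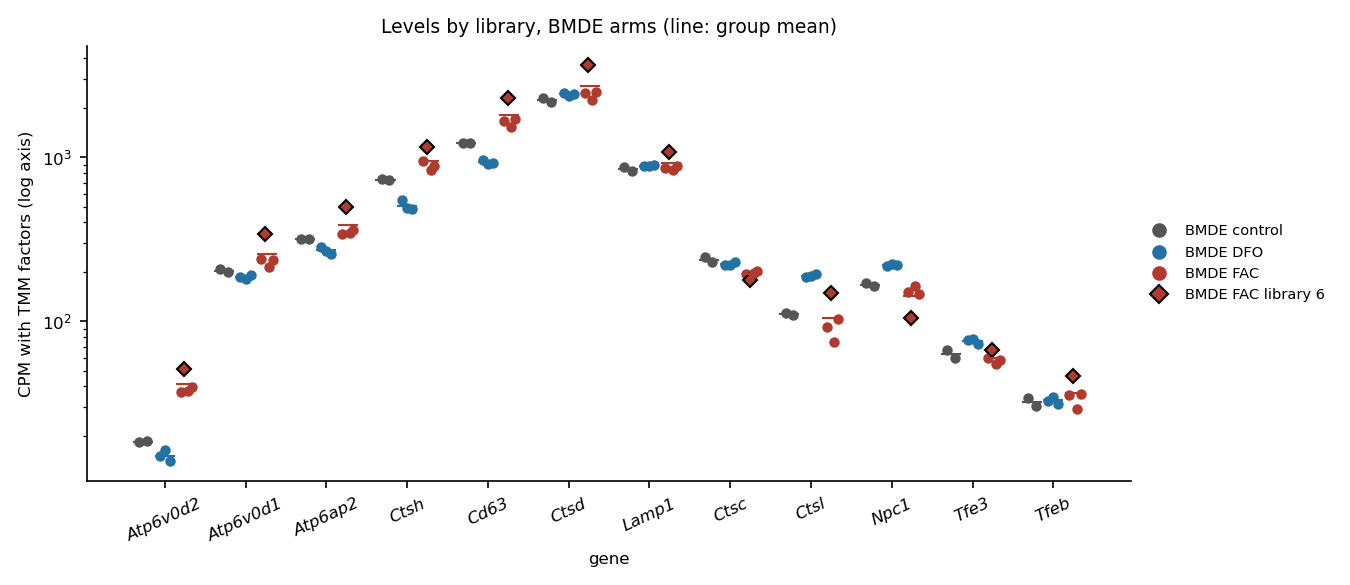
CPM (vertical log axis) of 12 members in each BMDE library, with a line at each group mean and FAC library 6 drawn as an outlined diamond. Atp6v0d2 lies at 37.3 to 51.3 CPM with FAC and at no more than 18.6 CPM in the other arms, and library 6 is the highest FAC library for 10 of the 12 genes.

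FAC against DFO sets iron-loaded beside iron-depleted cells, and shares its libraries with both comparisons above. Cells with FAC had more Atp6v0d2, Cd63 and Ctsh and less Ctsl, Npc1 and Tfe3. Of 33 members 7 were called higher and 6 lower, where 23.5% of all genes were called higher and 24.8% lower. The groups did not overlap for 15 members, against 55.7% of all genes. The median log2 fold change was 0.05 over the members and -0.01 over all genes.

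Atp6v0d2 had 15.2, 16.4 and 14 CPM with DFO and 37.3, 51.3, 37.6 and 39.6 CPM with FAC, a log2 fold change of 1.45 (standard error 0.13, adjusted p 2.5e-05). Cd63 had 955, 912 and 920.4 CPM against 1671, 2289.5, 1535 and 1699 CPM, a change of 0.95 (standard error 0.13, adjusted p 0.000321). Ctsh had 548, 490.4 and 483 CPM against 945, 1153, 834 and 883 CPM, a change of 0.91 (standard error 0.11, adjusted p 0.000193). In all 3 the lowest FAC library was above the highest DFO library. Atp6v1f had 82.8, 72.7 and 78 CPM against 99.2, 163, 85.2 and 104 CPM, a change of 0.54 (standard error 0.19, adjusted p 0.0443). Atp6ap2, the prorenin receptor and an accessory protein of the pump, rose by 0.51, Atp6v0e by 0.50 and Atp6v0d1 by 0.46. Among the members, Atp6v0a1, which holds the proton path beside the c ring, was the 1 pump gene that fell (-0.24, adjusted p 0.00945).

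Ctsl had 185, 189 and 194 CPM with DFO and 92.5, 149, 74.9 and 104 CPM with FAC, a log2 fold change of -0.85 (standard error 0.19, adjusted p 0.00536). Npc1 had 216, 225 and 221 CPM against 150.4, 105, 165 and 148 CPM, a change of -0.64 (standard error 0.13, adjusted p 0.00355). For both genes all FAC libraries lay below all DFO libraries. Tfe3 had 77, 78.2 and 73 CPM against 59.6, 66.7, 54.8 and 58.2 CPM, a change of -0.35 (standard error 0.08, adjusted p 0.00667), while Tfeb (0.16, adjusted p 0.367) was not called. Ctsc fell by 0.21 and Mcoln1 by 0.20 on the log2 scale. Ctsd (0.15, adjusted p 0.422) and Lamp1 (0.05, adjusted p 0.666) were not called.

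Calls that held under every alternative run were those of Atp6v0d2, Atp6ap2, Cd63 and Ctsh among the genes that rose and of Atp6v0a1, Ctsl, Tfe3 and Npc1 among those that fell. Without FAC library 6 there were 9 members called higher and 12 lower, where 31.9% and 30.7% of all genes were, and Atp6v1d turned from 0.05 to -0.12 (adjusted p 0.0484). The count called higher was 4 without any 1 of the DFO libraries. Over all fits that left out 1 library, 4250 to 7855 genes were called, against 6080 with all libraries. In the same libraries 11 of 11 eosinophil markers were higher with FAC, 11 of 12 neutrophil, 9 of 10 dendritic cell and 6 of 6 progenitor markers (502 to 548 CPM against 977 to 1039.7 CPM) were lower. Of the neutrophil markers 1 was called higher. Of 8 mast cell and basophil markers 4 were higher and 3 lower. Of 7 erythroid markers 2 were higher and 1 lower, and of 7 B cell markers 1 higher and 2 lower. The monocyte and macrophage sum was above that of every DFO library (2564 to 3860.4 CPM against 1911 to 2046 CPM) with 3 of 14 markers higher and 3 lower. The part of all these lists in the members' values was not tested.

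**Figure D4:**
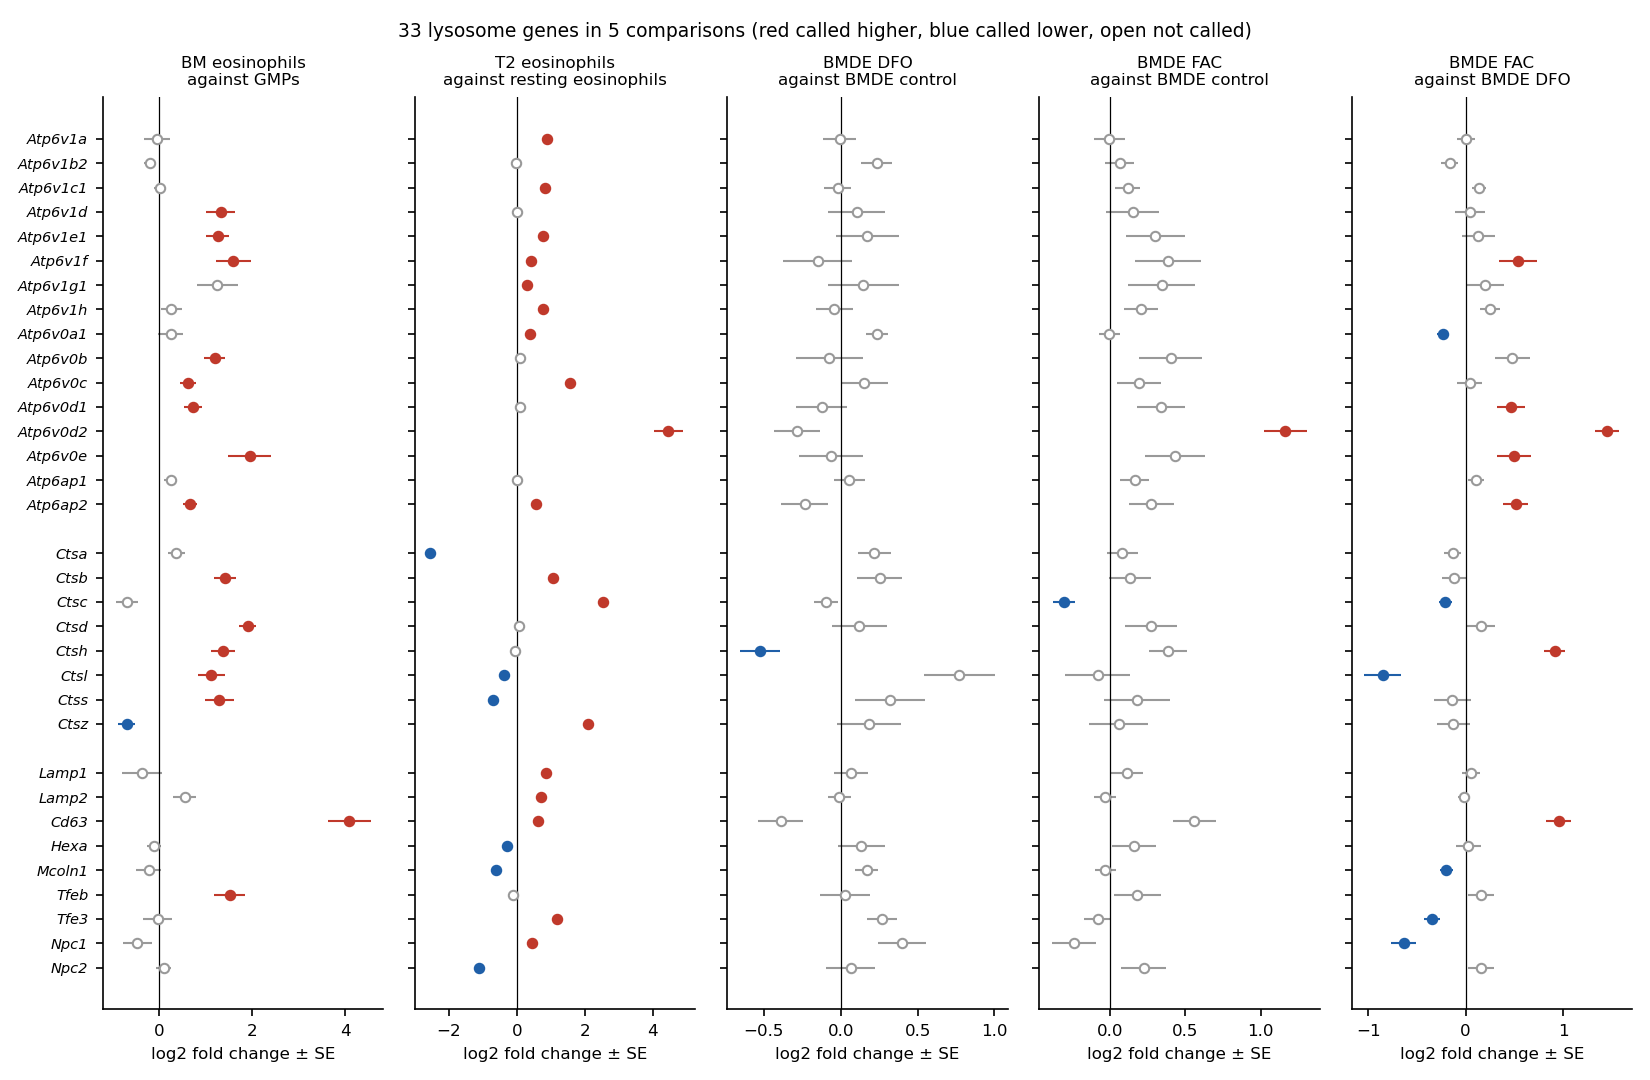
Log2 fold change with its SE (horizontal axes, each panel on its own scale) of each member (rows, pump genes above, cathepsins in the middle, the others below) in the 5 comparisons, red where called higher, blue where called lower and open where not called. Atp6v0d2 was not tested in the first panel and Atp6v0e is not in the table of the second, the second panel holds 24 calls and the third holds 1.

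Over the 5 comparisons, which share libraries within the BMDE table, 2 members, Atp6v1b2 and Atp6ap1, were called in none. Among the 16 pump genes of the 33 members, Atp6v0a1 was the only one called lower in any. In all, 8 members were called in both directions, namely Atp6v0a1, Ctsc, Ctsh, Ctsl, Ctss, Ctsz, Tfe3 and Npc1. The matching shares over all genes were not counted, so these counts are not read as a trait of the members. Calls were common over all genes, at 38.2% higher and 37.9% lower in T2 eosinophils. Between FAC and DFO they were 23.5% higher and 24.8% lower. Cd63 was called higher in 3 comparisons and lower in none.

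The d subunit of the V0 sector can be made from Atp6v0d1 or Atp6v0d2. As a share of both per kilobase, Atp6v0d2 made up 0.0077% of d subunit RNA in GMPs, where it had 1 read, 0 to 0.713% in BM eosinophils and 0.0723% ± 0.0481 (SD, n = 3) in resting eosinophils. In T2 eosinophils the share was 1.60% ± 0.304 (SD, n = 3). It was 5.52% ± 0.21 (SD, n = 2) in control BMDEs, 4.98% ± 0.524 (SD, n = 3) with DFO and 9.45% ± 0.598 (SD, n = 4) with FAC. The FAC libraries, at 8.85% to 10.2%, lay above all control and DFO libraries, at 4.46% to 5.67%, and FAC library 6 had the lowest share of its group. Atp6v0d1 remained the major form in every library.

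**Figure D5:**
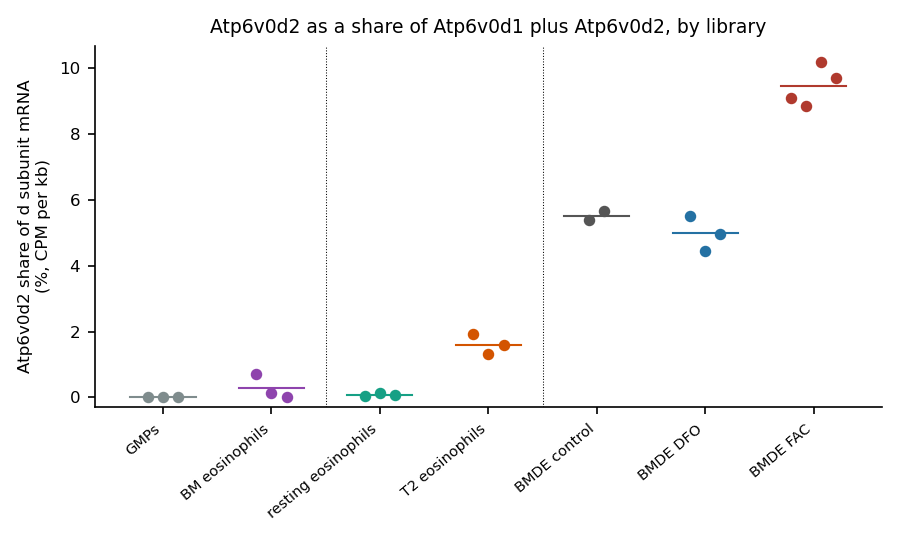
Atp6v0d2 as a percentage of Atp6v0d1 plus Atp6v0d2 in CPM per kb (vertical axis) in each library, by group along the horizontal axis, with a line at each mean and dotted lines between separately scaled tables. FAC libraries lie at 8.85% to 10.2% and the control and DFO libraries at 4.46% to 5.67%.

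A wider list of 128 other lysosome genes gave the setting for each comparison. In BM eosinophils 17 of 109 tested were higher than in GMPs (15.6%, beside 13.0% of all genes) and 5 lower (4.59%, beside 6.78%). The mannose 6-phosphate receptor gene Igf2r, which sorts enzymes to the lysosome, was at 24.3 ± 8.74 against 0.304 ± 0.215 CPM (log2 6.30, adjusted p 0.00161). The cathepsin inhibitors Stfa1 and Stfa2l1, members of a cluster of close copies whose reads may be shared, were at 3.97 ± 4.15 and 4.15 ± 5.58 CPM, while Stfa1 had 0 reads in the GMP libraries and Stfa2l1 was at 0.0107 ± 0.0185 CPM. Igf2r, Stfa1 and Stfa2l1 passed the filter on low counts only through the eosinophil libraries, so they could be found higher but not lower. Those with the largest falls were Scpep1 at 19.8 ± 10.9 against 71.9 ± 2.03 CPM (log2 -1.86, adjusted p 0.033), Gnptab, which makes the mannose 6-phosphate tag, at 20 ± 11.1 against 63.2 ± 17.5 CPM (log2 -1.66, adjusted p 0.0489), and the nucleoside transporter Slc29a3 at 40.3 ± 5.09 against 124 ± 0.255 CPM (log2 -1.63, adjusted p 0.00125). Calls of Stfa1, Stfa2l1, Scpep1 and Gnptab were lost on leaving out GMP library 1, 2 or 3, and those of Stfa1, Scpep1 and Gnptab also without eosinophil library 2. Igf2r and Slc29a3 were called in all 12 fits.

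In T2 eosinophils 40 of 105 other lysosome genes were higher (38.1%, beside 38.2% of all genes) and 46 lower (43.8%, beside 37.9%). By list, with no test between lists, 10 of 33 hydrolases were higher and 19 lower, 4 of 22 membrane genes higher and 14 lower, and 9 of 15 genes of nutrient sensing and the TFEB family higher and 2 lower. The acid lipase Lipa was at 229.5 ± 7.67 against 29.4 ± 1.41 CPM (log2 2.97, adjusted p 1.79e-16), the cathepsin inhibitor Cst7 at 239 ± 14 against 47 ± 1.82 CPM (log2 2.35, adjusted p 3.26e-15) and Fnip2, a partner of folliculin, at 61 ± 3.18 against 12.2 ± 0.745 CPM (log2 2.32, adjusted p 6.63e-14). The sulfatase-class enzyme gene Sgsh was at 2.14 ± 0.532 against 15.8 ± 0.938 CPM (log2 -2.89, adjusted p 4.66e-11), Acp5 at 6.75 ± 1.72 against 33.3 ± 0.691 CPM (log2 -2.30, adjusted p 5.23e-11) and the transporter Abca2 at 16.7 ± 1.18 against 75.5 ± 3.96 CPM (log2 -2.18, adjusted p 9.99e-14). Of 3 further pump subunits tested, Atp6v0a2 rose (0.31) and Tcirg1 (-0.49) and Atp6v1g2 (-0.53) fell. Of 8 pump assembly genes tested 4 rose, among them Ccdc115 (1.28), and 2 fell, Rogdi (-1.29) and Wdr7 (-1.35), parts of the complex that joins V1 to V0.

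In BMDEs 12 of 115 other lysosome genes were higher (10.4%, beside 6.46% of all genes) and 6 lower (5.22%, beside 5.12%) with DFO than in controls. The sulfatases Arsb and Arsa were among the falls, Arsb at 801 ± 41.5 against 1389 ± 3.96 CPM (log2 -0.79, adjusted p 0.00365) and Arsa at 53.2 ± 2.75 against 82.7 ± 2.98 CPM (log2 -0.64, adjusted p 0.00208), as was Acp5 at 8.17 ± 0.603 against 12.6 ± 0.908 CPM (log2 -0.62, adjusted p 0.0125). The largest rises were Stfa2l1 at 14.6 ± 2.05 against 6.83 ± 1.71 CPM (log2 1.10, adjusted p 0.00902), Slc29a3 at 135 ± 3.3 against 84.2 ± 2.42 CPM (log2 0.69, adjusted p 0.0167) and the GTPase gene Rragd at 12.1 ± 0.552 against 7.91 ± 0.74 CPM (log2 0.61, adjusted p 0.00786). The call of Slc29a3 ended without any 1 of the 5 libraries, that of Acp5 held in 2 of 5 such fits, those of Stfa2l1 and Rragd ended without control library 2, and Arsb and Arsa were called in all 10 fits. With FAC against controls 3 were higher (2.61%, beside 1.76%) and 5 lower (4.35%, beside 4.28%). Those higher were Ctsk at 2.87 ± 0.506 against 1.26 ± 0.00156 CPM (log2 1.18, adjusted p 0.0477), Gpnmb at 1038 ± 123 against 725 ± 18.2 CPM (log2 0.52, adjusted p 0.0255) and the sphingomyelinase Smpd1 at 82.1 ± 3.51 against 63.6 ± 0.849 CPM (log2 0.37, adjusted p 0.0203). The largest falls were Slc29a3 at 58.4 ± 9.62 against 84.2 ± 2.42 CPM (log2 -0.53, adjusted p 0.0491), Sgsh at 17.4 ± 1.65 against 24.5 ± 0.111 CPM (log2 -0.49, adjusted p 0.0207) and Scarb2 at 57.9 ± 3.15 against 80.1 ± 3.22 CPM (log2 -0.47, adjusted p 0.00999). All 6 of these calls ended without either control library and in the fit of these arms alone, with adjusted p-values up to 0.318.

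Between FAC and DFO 23 of 115 were higher (20.0%, beside 23.5% of all genes) and 39 lower (33.9%, beside 24.8%). None of 23 membrane genes was called higher and 9 were lower (39.1%), and of 33 hydrolases 13 were higher (39.4%) and 12 lower (36.4%), with no test between the lists. Ctsk, the osteoclast cathepsin, was at 2.87 ± 0.506 against 1.32 ± 0.5 CPM (log2 1.12, adjusted p 0.00598), Arsb at 1562 ± 185 against 801 ± 41.5 CPM (log2 0.96, adjusted p 6.7e-05) and Arsa at 89.4 ± 3.9 against 53.2 ± 2.75 CPM (log2 0.75, adjusted p 3.06e-05). Those that fell furthest were Stfa1 at 0.67 ± 0.403 against 1.58 ± 0.241 CPM (log2 -1.24, adjusted p 0.0193), Stfa2l1 at 6.22 ± 1 against 14.6 ± 2.05 CPM (log2 -1.24, adjusted p 0.000305) and Slc29a3 at 58.4 ± 9.62 against 135 ± 3.3 CPM (log2 -1.21, adjusted p 4.75e-05). Stfa1 was called in 9 of 12 fits and the other 5 in all 12. Of the pump's assembly genes, Ccdc115 (0.40) and Tmem199 (0.32) rose and Dmxl1 (-0.88) and Wdr7 (-0.59) fell, and Tcirg1, an a subunit gene, fell as well (-0.39).

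The counts carry 2 limits for single members. Exons of 10 members overlap a gene on the other strand in the GENCODE annotation (Atp6v1e1, Atp6v1h, Atp6v0b, Ctsa, Ctsb, Ctsl, Ctsz, Lamp1, Hexa and Npc1), and the strand setting of the counting is not given in the sources used here. Atp6v0c and Cd63 have named pseudogenes, Ctsl and Ctsd share exons with a gene on the same strand, and how shared reads were divided is not given either.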

How the data were processed

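Messenger RNA was enriched by its poly(A) tail for all 21 libraries, per the labels' protocols. The build mm10 and the tools RSEM, HISAT2, StringTie 1.3.1, fastp 0.18.0 and Bowtie2 2.2.8 are named in the submitters' processing notes, with no role, and the strand setting is not given in the sources used here. The authors deposited expected counts (estimated reads, with fractions, not normalized) for the bone marrow and BMDE tables, and whole-number read counts for the T2 table, per the file headers and the values. The 36 FPKM and TPM columns of single libraries were not used.

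Genes were matched by identifier (15899 of 15945, 22219 of 22274 and 16596 of 16645 in the bone marrow, T2 and BMDE tables), which resolved a second row named Ctsd. That row of the T2 table had another identifier and was not counted as a member. It was at 0.842 to 2.86 CPM in resting and 1.23 to 14.3 CPM in T2 libraries, which overlapped. It was called higher (log2 fold change 1.53, adjusted p 0.0325). Rounding was applied to the expected counts. Every table had its own fit in edgeR 4.0.16 (R 4.3.3) with filterByExpr, TMM factors and the two-sided quasi-likelihood F test; the 3 BMDE arms formed 1 fit. Adjusted p-values are Benjamini-Hochberg over all genes tested, and 12214, 11345 and 12607 genes were tested in the bone marrow, T2 and BMDE tables. Totals per library were 25857382 to 28992668, 16073573 to 18995878 and 16809789 to 17991878 counts, and no molecular identifiers are named, so precision is that of reads. Each log2 fold change is the fitted one, and its SE includes the spread between libraries. Levels per kb use the median length of a gene's protein-coding transcripts tied to RefSeq in GENCODE M21. The code was tested on simulated data.

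All 33 members are named. Values by library are given for the called members with the largest changes, up to 4 a direction and comparison, and for Tfeb, Tfe3, Lamp1, Ctsd and Atp6v0d2 in every comparison. Of the other lysosome genes, up to 3 called in each direction are named. Subunits and assembly factors of the pump beyond these were named after their values were seen. Members and lists were chosen with earlier results of these data known. Alternatives were DESeq2 1.42.0, RLE factors, no filter on low counts, leaving out each library, a replicate block, length and GC offsets, and fits of 2 arms only.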

Additional observations from a re-analysis of the deposited data

Results flagged for a closer look

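Within the members, 5 values stood out within the FAC group, all in library 6. For each, the gap between that library and the next, divided by the range of the 4 FAC libraries, was above Dixon's 95% critical value for groups of 4. Atp6v0b was at 428 CPM there against 238 to 268 CPM in the other FAC libraries, and Atp6ap2 at 497 CPM against 341 to 358 CPM. Atp6v0e was at 259.7 CPM against 147.5 to 166.3 CPM and Atp6v1d at 166.0 CPM against 101.0 to 110.9 CPM. Atp6v0d2 was at 51.3 CPM against 37.3 to 39.6 CPM. About 1 group in 20 is marked in this way by chance, and 33 members were examined in this group.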

How the results depend on the processing

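The T2 counts stayed within 1.5 times of their values under every alternative run (members higher 18 to 21, lower 5 to 7). For BM eosinophils against GMPs, leaving out 1 library gave 2 to 16 members higher, 0 to 3 lower and 747 to 4623 genes called (2413 with all libraries); DESeq2 gave 2 members lower and 3867 genes. Deviations of same-numbered libraries correlated at 0.0124, 0.00498 and 0.119 for GMPs and eosinophils, against -0.176 to 0.144 for differently numbered ones. For T2 and resting cells the correlations were -0.00918, -0.0216 and 0.0335, against -0.0491 to 0.0523. These values show no pairing by replicate number, but they cannot exclude a shared animal or batch. The replicate block gave 10 members higher, 0 lower and 1419 genes in the first table and left 18 higher and 6 lower in the second. BMDE groups share no replicate numbers. For DFO against controls, leaving out 1 library gave 0 members higher, 0 lower and 217 to 699 genes (1460.0 with all); DESeq2 gave 2 higher, and the fit of 2 arms 15 higher, 6 lower and 5982 genes. For FAC against controls, leaving out 1 library gave 0 to 6 higher, 0 to 2 lower and 76 to 2728 genes (761 with all); DESeq2 gave 3 higher and 1311 genes, no filter 0 lower, and the fit of 2 arms 0 lower and 116 genes. For FAC against DFO, leaving out 1 library gave 4 to 10 higher, 4 to 12 lower and 4250.0 to 7855 genes (6080.0 with all); without FAC library 6 the members' median turned to -0.0223 and Atp6v1d to -0.12, and leaving out 1 library spanned -0.0223 to 0.16 for the median and -0.12 to 0.16 for Atp6v1d. Scaling by total counts without factors moved the members' summed level to 7099 CPM in GMPs, 9732 in BM eosinophils, 8005 in resting and 8269 in T2 eosinophils and 14097 with DFO. The cause of these shifts was not tested. With 2 control libraries, the lone control left when the other is dropped is assumed to vary like the other arms. In bone marrow Atp6v0d2 entered only the fit without a count filter.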
